A study of Homo sapiens with 14 samples.

Results

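The genes described are the 78 protein-coding genes of GENCODE release 44 whose symbols are MRPL or MRPS followed by a digit, among 19970 protein-coding genes, here called MRP genes. Membership was set by symbol alone, but the group was chosen with earlier results of these data known. A peak was assigned to a gene when its centre lay from 2 kb upstream to 1 kb downstream of any annotated start site of that gene. HEK293T is an established human embryonic kidney cell line. In the derivative used, clone HEK_CloneZD29, ZNF143 carries the FKBP12F36V degron tag in untreated and treated cells alike, and dTAG-V1 is a small molecule that directs the tagged protein to degradation. The Proteintech antibody, a polyclonal antibody against ZNF143, was used for ChIP-seq in 4 untreated samples and in 4 samples that received 0.5 µM dTAG-V1 for 30 min. The authors report that this antibody also recognizes the protein CTCF, so a peak in these lists need not be ZNF143 signal. All samples come from 1 clone, and the other 6 of the 14 samples, CTCF ChIP-seq, were not analysed here.

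The authors deposited 1 peak list per condition in hg38 coordinates, with 20429 peaks untreated and 35287 peaks with dTAG-V1. Each peak has a score, which MACS2 derives from the q-value, a fold enrichment over the local background and a summit, the base of highest pileup. The lists hold no values of single samples and no read counts, so that the depth is unknown and the spread between samples cannot be set beside any difference between the lists. No p-value is given for that reason. According to the methods, peaks had to be found in each of 4 replicates when untreated but in any of 4 replicates with dTAG-V1, and the treated list is the longer one. The lists hold no column that shows whether the deposited peaks passed this filter. Scores and folds are therefore given on the scale of their own list, and positions within a list are given as a rank percentile, the rank by score divided by the number of peaks in that list, where a low percentile means a high score. Equal scores share the better rank.

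Mitochondria translate the few proteins encoded by their own genome on a dedicated ribosome, the mitoribosome. Its RNA is mitochondrial, whereas every one of its proteins is encoded in the nucleus, made in the cytosol and imported, so that its assembly depends on many nuclear promoters being active together. The proteins of the large subunit carry MRPL symbols and those of the small subunit MRPS symbols, with a few exceptions such as MRPS18A and MRPS30, which sit in the large subunit. Some have a counterpart in bacterial ribosomes and others exist only in mitochondria. Of the 78 genes, 51 were placed in the large and 26 in the small subunit, and MRPS36, now known as a component of the ketoglutarate dehydrogenase complex, was left unplaced. ZNF143 is a zinc finger activator that binds DNA through a long motif, the SBS, found at the promoters of many housekeeping genes.

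An SBS matrix was learned from the top 10% of untreated peaks on odd-numbered autosomes, with MRP promoter peaks left out. Its consensus was GGACTACANTTCCCAGNANGCC, with 19 fixed letters. It matches the form of the SBS that carries the ACTACA part. No separate matrix for SBS without that part was used, so genes without an SBS match below were scanned for this form only. The sites below are the best matches within 100 bp of the untreated summits of the 10 MRP genes with the highest untreated scores, and are shown because they allow the letters under the highest peaks to be compared. Each is printed in the direction of the consensus, with the matched 22 bases in capitals and 4 flanking bases on either side, and all lie upstream of the start site of their gene.
MRPL24: cggcGGACTACAACTCCCAGCATGCTgaga
MRPL11: gtcaAAACTACCATACCCACAATGCTatgg
MRPS11 and MRPL46: caatGCACCGCGGCTCCCAGGGATCCctca
MRPL50: tactGGACTACATTTCCCAGCGTGCAaagg
MRPS25: aggcCGCCTACAAGTCCCAGAGTGCTccgc
MRPS22: aactAGACTACATTTCCCAGAGTGCTgcaa
MRPS16: tgccGCCCTATACTTCCCACAATGCAacac
MRPL32: cttaGAACTACAACACCCCGCATGCTcttg
MRPL54: acggGGCCTACAACTCCCAAACACCCttgg

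In hg38 these sites lie at chr1:156741181-156741210 (minus strand) for MRPL24, chr11:66439069-66439098 (minus) for MRPL11, chr15:88467392-88467421 (plus) for MRPS11 and MRPL46, chr9:101398710-101398739 (minus) for MRPL50, chr3:15065357-15065386 (minus) for MRPS25, chr3:139343936-139343965 (plus) for MRPS22, chr10:73252671-73252700 (plus) for MRPS16, chr7:42932278-42932307 (minus) for MRPL32 and chr19:3762620-3762649 (plus) for MRPL54. MRPL24 and MRPL50 each carried 17 of the 19 fixed letters, MRPS22 16, and MRPS25, MRPS16, MRPL32 and MRPL54 14 each. MRPL11 carried 13 and the site shared by MRPS11 and MRPL46 12. ACTACA itself is present at MRPL24, MRPL50, MRPS22 and MRPL32 and not at the others. The weakest matches were those of MRPS16, with a matrix score of 9.63, and of MRPS11 and MRPL46, with 9.91, closer to the threshold of 7.46 than to the 32.86 of MRPL24. The matches are descriptions of letters and were not tested for binding.

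Most MRP promoters carried a peak in both conditions. In the untreated list 69 of 78 MRP genes had a promoter peak, or 88.5%, against 40.5% of all protein-coding genes. In the dTAG-V1 list 73 of 78 had one, or 93.6%, against 48.2% of all. Overlapping peaks in both lists were found at 68 MRP genes, or 87.2%, against 35.6% of all. Of the 69 MRP genes with an untreated peak, 98.6% had an overlapping dTAG-V1 peak, whereas 87.9% of all protein-coding genes with an untreated peak did. MRP promoters are mostly rich in CpG, with 65 of the 69 that matched a RefSeq promoter passing a GC content of 50% and an observed to expected CpG ratio of 0.6. Among the 9836 protein-coding genes passing the same criteria, 54.8% had an untreated and 63.8% a dTAG-V1 peak, so the MRP share was above this background too.

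Other gene groups of the ribosome and the respiratory chain were placed beside the MRP genes. Among the cytosolic ribosomal proteins, which build the ribosome of the cytosol, 79 of 85 genes had an untreated and 78 a dTAG-V1 peak. Among the subunits of respiratory complex I, the NADH dehydrogenase, the numbers were 35 and 36 of 38. All 5 mitoribosomal proteins whose symbols do not begin with MRP (DAP3, PTCD3, AURKAIP1, CHCHD1 and GADD45GIP1) had a peak in both lists. The factors that assemble the mitoribosome or modify its RNA had a peak at 19 of 27 genes untreated and at 22 of 27 with dTAG-V1. The share of MRP genes with a peak lay near that of the other groups of structural proteins.

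**Figure D1:**
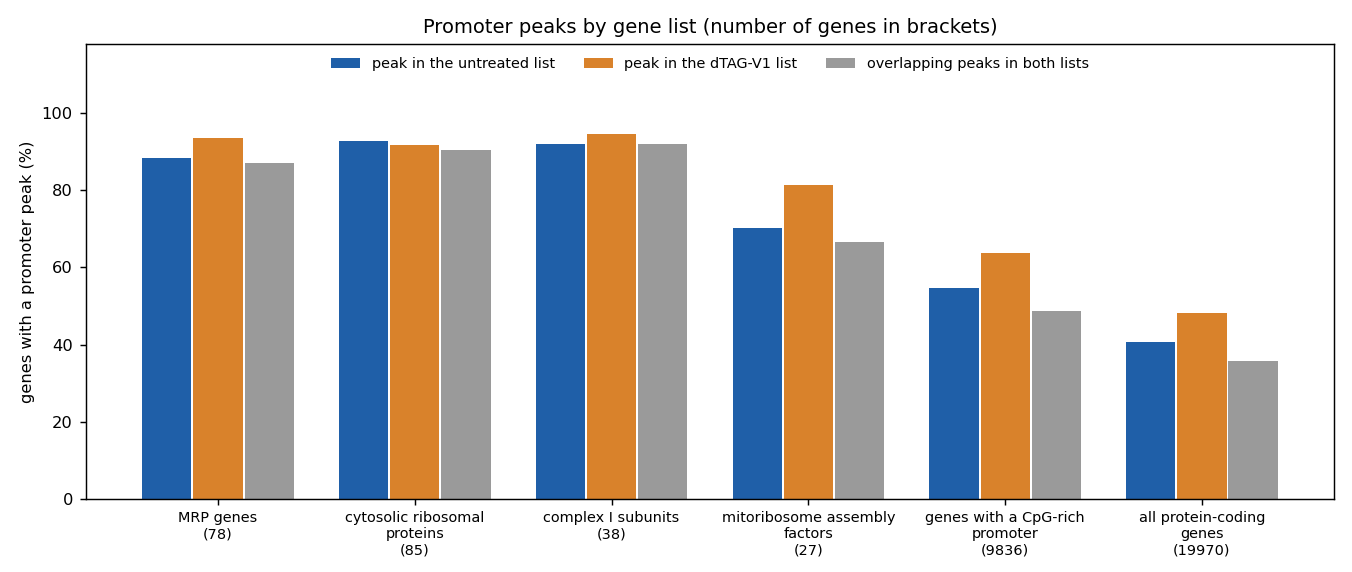
Share of genes with a promoter peak (%, y axis) for 6 groups of genes, with bars for the untreated list, the dTAG-V1 list and overlapping peaks in both. The MRP bars (88.5%, 93.6% and 87.2%) stand near those of cytosolic ribosomal proteins and complex I subunits, and all protein-coding genes reach 40.5%, 48.2% and 35.6%.

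Within the MRP genes, the large subunit had an untreated peak at 47 of 51 genes and a dTAG-V1 peak at 50 of 51. The small subunit had one at 21 and 22 of 26 genes. The median untreated percentile was 15.9% for the large and 20.9% for the small subunit, and with dTAG-V1 it was 13.7% and 12.8%. MRP genes with a bacterial counterpart had an untreated peak in 39 of 46 cases and those found only in mitochondria in 29 of 31. Their median percentiles were 19.7% and 16.9% untreated and 12.1% and 14.8% with dTAG-V1. The top 10% of the untreated list held 17 genes of the large and 5 of the small subunit, and 12 with and 10 without a bacterial counterpart. With both divisions crossed, the 30 large subunit genes with a bacterial counterpart had median percentiles of 15.9% untreated and 9.32% with dTAG-V1, and the 16 such genes of the small subunit 25.2% and 26.9%. These subgroups were not compared by a test.

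The highest untreated peak at an MRP gene was that of MRPL24, a protein of the large subunit with a bacterial counterpart. Its untreated peak, at chr1:156740873-156741525, ranked 69, with a score of 155853 and a fold enrichment of 23.4, and its dTAG-V1 peak ranked 37, with a score of 79330 and a fold of 24.9. The untreated summit lay 106 bp upstream of the start site and the dTAG-V1 summit 94 bp upstream. The peak covered 3 SBS matches, centred 46, 108 and 272 bp upstream of the start site, all on the strand of the gene. It was the only peak of an MRP gene in the top 100 of either list.

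MRPL11, a component of the stalk base where translation factors bind, came next. Its untreated peak, at chr11:66438634-66439237, ranked 175, with a score of 112255, and 262 with dTAG-V1, with a score of 32876. The summits lay 191 and 183 bp upstream of the start site. The stretch around the untreated summit is printed here on the strand of the gene, with the SBS match in capitals, as an example of a high peak whose match lies 45 bp from the summit, farther than at the other genes of the top 10. It covers chr11:66438964-66439113 on the minus strand.
MRPL11 stretch: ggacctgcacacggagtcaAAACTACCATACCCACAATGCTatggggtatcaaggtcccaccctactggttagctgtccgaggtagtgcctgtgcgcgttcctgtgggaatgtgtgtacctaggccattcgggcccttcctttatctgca

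MRPS11, a protein of the platform of the small subunit, and MRPL46, found only in the mitochondrial large subunit, are transcribed in opposite directions from one promoter and share 1 peak. The untreated peak, at chr15:88467024-88467877, ranked 242, with a score of 97628, and 619 with dTAG-V1, with a score of 17504. Its untreated summit lay 17 bp upstream of the start site of MRPL46 and 303 bp upstream of that of MRPS11. This is the only peak that stood for 2 MRP genes, so the 69 genes with an untreated peak are represented by 68 peaks and the 73 with a dTAG-V1 peak by 72.

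The next members of the ranking were of both subunits. MRPL50, found only in the mitochondrial large subunit, ranked 313 untreated and 180 with dTAG-V1, with scores of 86759 and 39814. MRPS25 ranked 343 and 444, with scores of 82320 and 23203 and the highest untreated fold enrichment of all MRP genes, 37.0. MRPS22, like MRPS25 a mitochondria-specific protein of the small subunit, ranked 418 and 286, with scores of 73170 and 31554. These peaks were placed alike in both lists: the summits of MRPL50, MRPS25 and MRPS22 lay 124, 44 and 52 bp upstream of the start site untreated, and 127, 44 and 48 bp upstream with dTAG-V1.

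MRPS16, a small subunit protein with a bacterial counterpart, ranked 531 untreated and 600 with dTAG-V1, with scores of 61383 and 18139. MRPL32, a large subunit protein that is processed by a mitochondrial protease after import, ranked 655 and 399, with scores of 50784 and 25108. MRPL54, found only in the mitochondrial large subunit, ranked 707 and 602, with scores of 47545 and 18051. The 5 highest MRP genes of the dTAG-V1 list were MRPL24, MRPL50, MRPL11, MRPS22 and MRPL32, and each of them is among the 10 highest untreated.

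Across all MRP genes the ranks were spread widely. Untreated percentiles ran from 0.338% to 88.4%, with a median of 19.5%, against 30.2% over all protein-coding genes with a peak. With dTAG-V1 they ran from 0.105% to 98.0%, with a median of 13.0%, against 35.0%. The top 10% of the untreated list held 22 of the 69 MRP genes with a peak, or 31.9%, against 24.8% of all genes with a peak. The top 10% of the dTAG-V1 list held 32 of 73, or 43.8%, against 27.8%. These 32 included each of the 22, and the 10 others were MRPL28, MRPL30, MRPL39, MRPL3, MRPS23, MRPS7, MRPS15, MRPL9, MRPL13 and MRPL1.

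The treated list is longer, which by itself lowers the percentile of a peak that keeps its rank. Of the 68 MRP genes with overlapping peaks, 54 had the lower percentile in the dTAG-V1 list and 14 the higher one. Counted by rank, 24 of the 68, or 35.3%, stood nearer the top of the dTAG-V1 list and 44 farther from it. For all protein-coding genes the shares were 73.7% by percentile and 36.2% by rank, so the MRP genes were near the background on both counts. MRPL28 ranked 2455 untreated and 1089 with dTAG-V1, and MRPL57 ranked 2893 and 13624. These examples were chosen after their values were seen, and whether such differences exceed the spread between samples cannot be determined from these lists.

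**Figure D2:**
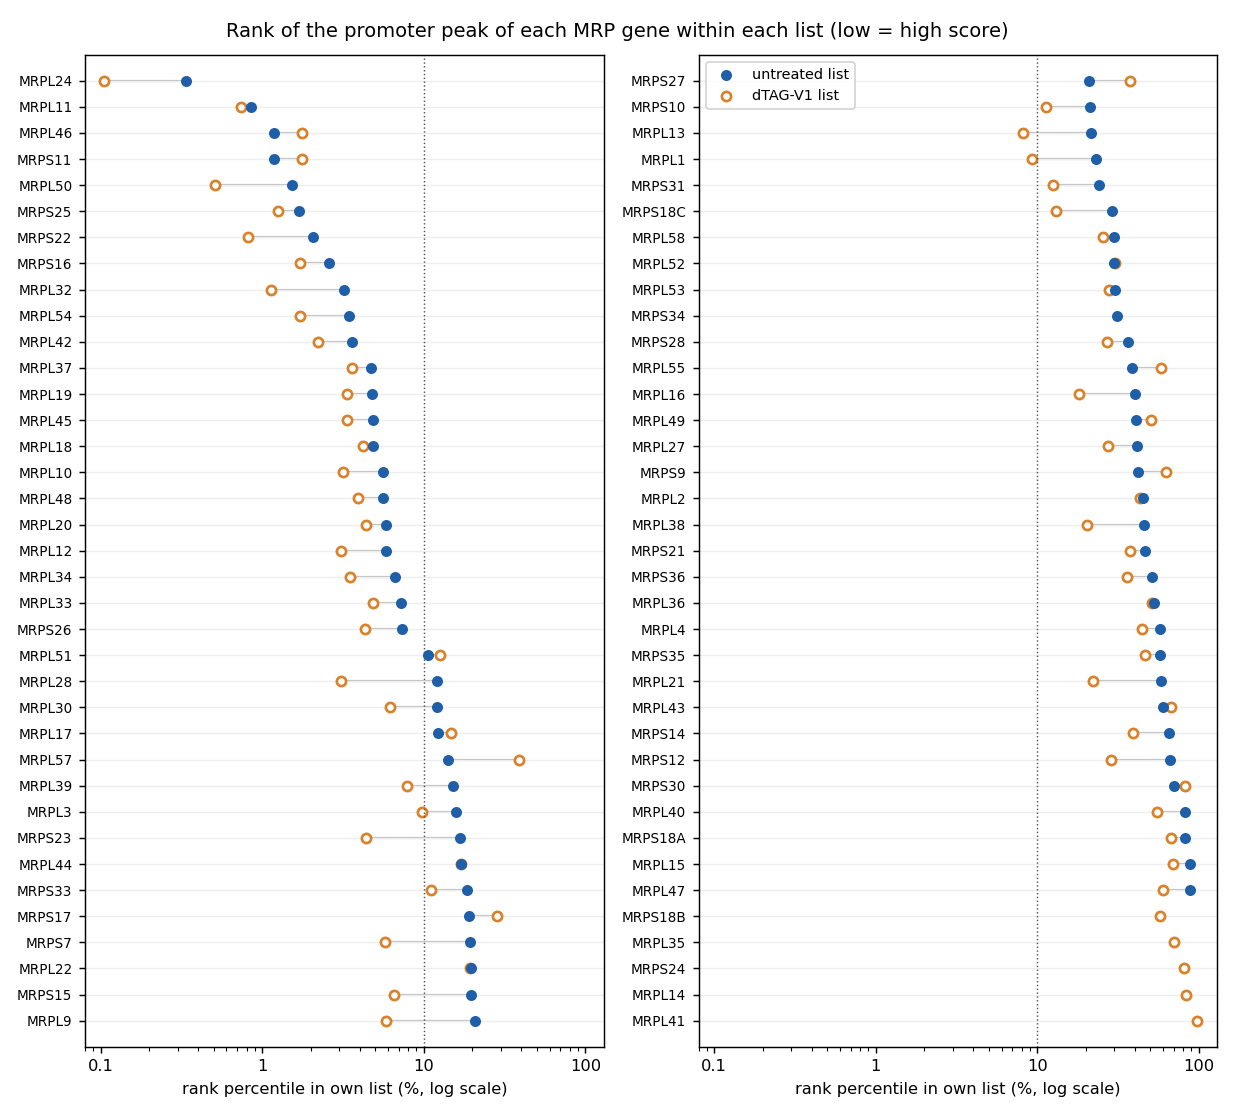
Rank percentile of the promoter peak of each of the 74 MRP genes with a peak in at least 1 list (%, log scale on the x axis), filled for the untreated and open for the dTAG-V1 list, sorted by the untreated value; the dotted line marks 10%. MRPL24 is the lowest at 0.338% untreated and 0.105% with dTAG-V1, and a gap separates the 22 genes up to 7.28% (MRPS26) from MRPL51 at 10.6%.

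At the other end, the lowest-ranking untreated peaks were those of MRPL47, MRPL15, MRPL40 and MRPS18A. MRPL47 ranked 18060 untreated, with a score of 47, and 21127 with dTAG-V1. MRPL15 ranked 17980 and 24322. MRPL40 and MRPS18A tied at rank 16864 untreated with a score of 59, and ranked 19286 and 23668 with dTAG-V1. In the dTAG-V1 list the lowest were MRPL41 at rank 34591, MRPL14 at 29509 and MRPS30 at 29122. All of these are peaks of weak scores on the scale of their list, with folds of 2.24 to 3.19.

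Peaks found in 1 list only were few. MRPS34, a mitochondria-specific protein of the small subunit, was the only MRP gene with a peak in the untreated list alone, 1.28% of the 78 genes against 4.91% of all protein-coding genes. Its peak ranked 6331 with a score of 360, and the summit lay 863 bp downstream of the start site in a coding exon, in the windows of EME2 and NME3 as well. The nearest dTAG-V1 peak was centred 2178 bp downstream of the nearest annotated start site of MRPS34, which is not the canonical one, outside the window. A peak in the dTAG-V1 list alone was found at 5 MRP genes, or 6.41%. Over all protein-coding genes, 4.91% had an untreated peak without an overlapping dTAG-V1 peak, and 12.6% had the reverse. These background shares also count genes with peaks in both lists that do not overlap. They are thus above the shares of genes with a peak in 1 list alone, whereas no MRP gene was of that kind.

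These 5 genes were MRPS18B, MRPL35, MRPS24, MRPL14 and MRPL41. Their dTAG-V1 ranks were 20280, 24615, 28628, 29509 and 34591, at percentiles of 57.5% to 98.0%. The summit of MRPL35, a large subunit protein with a bacterial counterpart, lay 5 bp upstream of the start site. The highest-scoring peaks of the others had summits farther away, at 658 bp upstream for MRPS18B, 726 bp downstream for MRPS24 and 531 bp downstream for MRPL14. That of MRPL41 lay 836 bp downstream, past the end of that short gene. MRPS18B also had a weaker dTAG-V1 peak of rank 33492 with its summit 89 bp downstream of the start site. MRPS24 had one of rank 32708 with its summit 462 bp upstream. No SBS match was found within 100 bp of the start site of any of the 5, nor at MRPS34. Such a match is uncommon in any case, present at 12 of 78 MRP genes, or 15.4%, and at 5.18% of all protein-coding genes.

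No peak of either list lay in the promoter windows of MRPS5, MRPS2, MRPL23 and MRPS6. MRPS2 and MRPS5 are core proteins of the small subunit with bacterial counterparts, and MRPL23 lies near the exit of the peptide tunnel. At MRPS6, an untreated peak of rank 17808 was centred 1206 bp and a dTAG-V1 peak of rank 34323 was centred 1884 bp downstream of the nearest start site, just outside the window. At MRPS5 a dTAG-V1 peak of rank 21926 was centred 3680 bp downstream of the nearest start site. MRPS2 and MRPL23 had no peak within 5 kb in either list. For MRPL35 and MRPS18B, which had a dTAG-V1 peak only, the nearest untreated peaks were centred 4338 and 2476 bp upstream of the nearest start site. Of the 4 genes without a peak, 3 matched a RefSeq promoter, and each of those 3 promoters passed the criteria for CpG richness.

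The summits lay close to the start site. Distances were measured from the start site of the Ensembl canonical transcript, with negative values upstream. The median summit position was -39 bp in the untreated list, with quartiles of -54 and 1 bp, and -36 bp in the dTAG-V1 list, with quartiles of -71 and 25 bp. Over all protein-coding genes with a peak the medians were -86 and -106 bp. The summit was within 100 bp of the start site at 49 of 69 MRP genes untreated, or 71.0%, against 31.0% of all genes with a peak. With dTAG-V1 it was at 47 of 73, or 64.4%, against 21.8%. Among cytosolic ribosomal protein genes these shares were 51.9% and 47.4%, and among complex I subunits 60.0% and 50.0%.

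The summit was upstream of the start site at 50 of 69 MRP genes untreated, or 72.5%, and at 51 of 73 with dTAG-V1, or 69.9%. These shares were near the 70.6% and 67.1% of all protein-coding genes with a peak. Of the untreated summits at or after it, 6 were in a UTR, 9 in a coding exon and 4 in an intron of the canonical transcript. With dTAG-V1 6 were in a UTR, 5 in a coding exon and 10 in an intron, and 1 lay past the end of the gene. Summits more than 500 bp away were found at 4 genes untreated and at 8 with dTAG-V1.

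**Figure D3:**
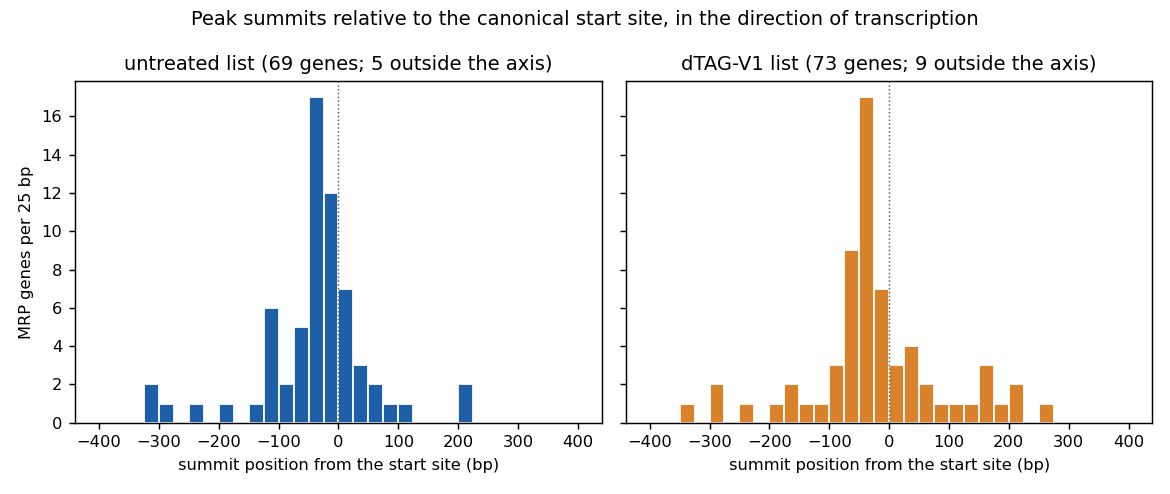
Number of MRP genes per 25 bp (y axis) by the position of the peak summit from the canonical start site (bp, x axis), for the 69 genes of the untreated list and the 73 genes of the dTAG-V1 list, with 5 and 9 genes outside the axis. The highest bar of both lists is just upstream of the start site, and the medians are -39 and -36 bp.

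Some MRP peaks also lay in the window of a neighbour. The untreated peak was in the window of at least 1 other protein-coding gene at 28 of 69 MRP genes, or 40.6%, against 33.9% of all protein-coding genes with a peak. With dTAG-V1 it was at 30 of 73, or 41.1%, against 30.3%. Among the highest are, besides the MRPS11 and MRPL46 pair, the peaks shared by MRPL50 with ZNF189, by MRPL32 with PSMA2, a proteasome subunit, and by MRPL54 with APBA3. Even so, the start site nearest to the summit was that of the MRP gene itself at 62 of 69 genes untreated and at 62 of 73 with dTAG-V1. For such shared peaks the lists cannot tell to which gene the signal belongs.

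Summits kept their place at most MRP genes. Over the 68 genes with overlapping peaks the median distance between the untreated and the dTAG-V1 summit was 17 bp, against 27 bp over all protein-coding genes with overlapping peaks. At 5 MRP genes both summits fell on the same base, at 37 they were at most 20 bp apart and at 53 at most 100 bp apart. The other 15, or 22.1%, had summits over 100 bp apart, against 27.7% of all such genes. Among the 22 genes of the untreated top 10% the median was 4 bp and 20 of them were within 20 bp, whereas the median was 35.5 bp among the other 46. Over all protein-coding genes with overlapping peaks the medians in these ranges were 4 and 56 bp, so the difference by rank was not limited to MRP genes.

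The 5 largest distances had different forms. At MRPS27, a mitochondria-specific protein of the small subunit, different peaks had the highest score in each list: an untreated peak of rank 4279 in an intron, 11703 bp downstream of the canonical start site near an alternative one, and a dTAG-V1 peak of rank 13144 with its summit 169 bp downstream. Both places carried a peak in both lists, with ranks of 15414 untreated at the canonical start site and 20750 with dTAG-V1 at the alternative one. At MRPL4, which lines the peptide tunnel, the untreated summit lay 82 bp upstream in a peak of rank 11688, and the highest dTAG-V1 peak, of rank 15685, lay 1951 bp upstream, beside a second one of rank 32084 with its summit 22 bp upstream. At MRPS12, a protein of the decoding centre, both lists held 2 peaks. The untreated one 537 bp upstream ranked 13577 and the one 143 bp downstream 14547, whereas with dTAG-V1 the ranks were 14917 at 523 bp upstream and 10059 at 169 bp downstream. At these 3 genes the distance is thus one between different peaks of the same promoter windows, since the peak with the highest score differed between the lists.

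At MRPL54 and MRPL36 the distance lay between the summits of 1 overlapping pair of peaks. The MRPL54 peak was 1328 bp wide untreated and 1355 bp wide with dTAG-V1 and covered 4 SBS matches. The untreated summit lay 39 bp upstream of the MRPL54 start site, next to a match centred 48 bp upstream with 14 of the 19 fixed letters, and the dTAG-V1 summit lay 954 bp upstream, next to a match centred 958 bp upstream with 18 of the 19. The nearest start site to the latter summit was that of APBA3. The second site is printed because it is the match with the most fixed letters in that peak, at chr19:3761709-3761738 on the minus strand.
MRPL54, upstream site: gggaGAACTACATTTCCCAGCAGGCCtcgc
At MRPL36, a large subunit protein with a bacterial counterpart, the untreated peak was 350 bp wide with its summit 243 bp upstream, and the dTAG-V1 peak was 1437 bp wide with its summit 1009 bp upstream, in the window of NDUFS6 as well. They ranked 10848 and 17966.

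More than 1 peak in the windows was found at 4 MRP genes untreated (MRPL34, MRPL39, MRPS12 and MRPS27) and at 11 with dTAG-V1, which are these 4 and MRPS30, MRPS36, MRPS18B, MRPS24, MRPS31, MRPS11 and MRPL4. The dTAG-V1 list holds more peaks, 35287 against 20429, and these counts are not set beside all protein-coding genes. The difference is therefore not read as one of the MRP genes. At MRPL34 a peak far upstream, at another annotated start site, ranked 14654 untreated and 6811 with dTAG-V1, and the peak 45 bp upstream of the canonical start site ranked 1358 and 1235. At MRPL39 the main peak ranked 3095 and 2789, and the second, 937 bp upstream untreated, ranked 19413 and 8409. At MRPS11 the second dTAG-V1 peak, 9050 bp downstream, ranked 12111. At MRPS31 it lay 21821 bp downstream with a rank of 31901. At MRPS36 the peak 250 bp downstream ranked 12690 and the other 28060. The remaining second peaks, at MRPS30, MRPS18B and MRPS24, ranked 32902, 33492 and 32708.

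SBS matches were found mainly at the MRP promoters of high rank. Within 100 bp of the summit a match was found at 17 of 69 MRP genes untreated, or 24.6% (95% Wilson interval 16.0 to 36.0), and at 16 of 73 with dTAG-V1, or 21.9% (14.0 to 32.7). Over all protein-coding genes with a peak the shares were 21.1% and 16.9%. The intervals cover counting error only and were not used as a test. The untreated background lies within the MRP interval, as does that of dTAG-V1. Around the canonical start sites themselves, peaks or not, 12 of 78 MRP genes held a match within 100 bp, or 15.4%, against 5.18% of all protein-coding genes and 6.83% of those with a CpG-rich promoter.

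The matches followed the rank. In the top 10% of the untreated list 15 of 22 MRP genes had a match, or 68.2%, against 68.8% of all genes with a peak in that range. Between 10% and 50% it was 2 of 34, or 5.88%, against 7.36%, and above 50% it was 0 of 13, against 2.81%. Because the matrix was learned from peaks of that top range, the contrast between ranges is a description and not a finding about the MRP genes. The median untreated percentile was 3.21% with and 26.6% without a match. The 7 genes of the top 10% without one were MRPL37, MRPL45, MRPL18, MRPL10, MRPL48, MRPL20 and MRPL12, with MRPL37 the highest at 4.68%. The 2 genes with a match outside the top 10% were MRPL3 at 15.9% and MRPS9 at 41.7%.

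The peaks of these 7 genes, named for the missing match and thus outside the rule for named genes, lay within 100 bp of the start site at 5 of the 7. MRPL45 had its summit 28 bp downstream of the start site, in a coding exon, on the same base in both lists, and ranked 987 untreated and 1176 with dTAG-V1. MRPL12, a protein of the stalk, had both summits 30 bp upstream and ranked 1194 and 1080. The untreated summit of MRPL10, another protein of the stalk, fell on the start site itself, with ranks of 1137 and 1118. MRPL37 and MRPL20 had summits 19 bp downstream and 50 bp upstream, with untreated ranks of 956 and 1184. The 2 others were placed differently. The summit of MRPL18 lay 815 bp upstream, nearest to the start site of TCP1, a subunit of the cytosolic chaperonin, and that of MRPL48 lay 205 bp downstream in an intron untreated and 38 bp downstream with dTAG-V1.

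Most matches were centred near the summits. With the site shared by MRPS11 and MRPL46 counted once, 13 of 16 untreated matches were centred within 20 bp of the summit, and 12 of 15 with dTAG-V1. Matches were sought only within 100 bp of a summit, with a matrix learned from windows around summits, so closeness is partly built in. Neither these counts nor those of strands are set beside all protein-coding genes here. Without that shared site, the consensus read in the direction of transcription at 11 of 15 untreated matches and in the opposite direction at 4. More than 1 match in the peak was found at MRPL24, MRPL50, MRPL54, MRPS16 and MRPS22, in both lists. Summits also differed less between the lists where a match was present: the median distance was 4 bp over the 17 genes with a match and 23 bp over the 51 without. Over all protein-coding genes with overlapping peaks these medians were 4 bp for 1629 genes and 43 bp for 5488 genes, so the MRP genes were near the background.

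**Figure D4:**
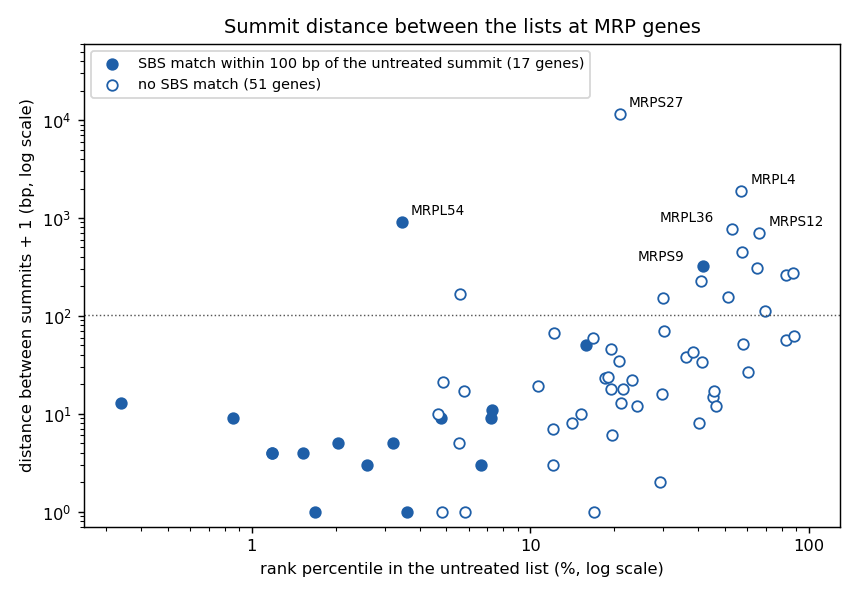
Distance between the untreated and dTAG-V1 summits plus 1 bp (log scale, y axis) against the untreated rank percentile (log scale, x axis) for the 68 MRP genes with overlapping peaks, filled where an SBS match lies within 100 bp of the untreated summit; the dotted line marks 100 bp. Of the 17 filled points, MRPL54 (915 bp) and MRPS9 (319 bp) are above the line, and the median is 4 bp for filled and 23 bp for open points.

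CTCF is a zinc finger protein that binds insulators and loop anchors. The authors report that the Proteintech antibody cross-reacts with it, and that the signal at CTCF sites stayed and grew stronger after ZNF143 depletion. Its motif was therefore counted, with a CTCF matrix learned from 4433 sites in 18913 dTAG-V1 peaks. A CTCF match lay within 100 bp of the summit at 8 of 69 MRP genes untreated, or 11.6% (95% Wilson interval 5.99 to 21.2), against 9.97% of all genes with a peak. With dTAG-V1 it was 5 of 73, or 6.85% (2.96 to 15.1), against 16.7%. Among genes with a CpG-rich promoter the dTAG-V1 share was 14.7%. The matrix was learned from peaks of this list without MRP promoter peaks, so the background holds training peaks and the MRP share does not. The intervals cover counting error only, and the difference was not tested. Among cytosolic ribosomal protein genes the dTAG-V1 share was 8.97%, and among complex I subunits it was 0 of 36. With matches at p 5e-05 the shares were 16.4% of MRP genes and 25.4% of all, and with matches anywhere in the peak 19.2% and 25.4%. MRP peaks ranked higher in the dTAG-V1 list, with a median percentile of 13.0% against 35.0% over all genes with a peak. The CTCF shares were not compared within ranges of rank. The 8 genes were MRPL17, MRPL39, MRPS33, MRPS27, MRPL58, MRPL38, MRPS12 and MRPL40, and the 5 were MRPL17, MRPL39, MRPS33, MRPL38 and MRPL4. Among the highest-scoring peaks, which stood for the MRP genes, none in either list had both an SBS and a CTCF match near its summit. Weaker peaks in the same windows are not covered by this count.

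Short words of other promoter factors were counted in the RefSeq promoters of GRCh38.p14, 250 bases before to 50 after the start, on both strands. Of the 78 MRP genes 69 matched an entry, and 15315 protein-coding genes did. AAGATGGC, the core of the YY1 motif, was found in 20 of 69 MRP promoters, or 29.0%, against 3.98% of all protein-coding promoters and 5.34% of the CpG-rich ones. The 20 promoters include MRPL32, MRPL42, MRPL46 and MRPL50, which also had an SBS match. Of the 20, 18 had an untreated peak, and 14 of these 18 had no SBS match. Over all 62 MRP genes with a RefSeq promoter and an untreated peak, 45 had none. The word lay at or after the start site in 15 of the 20, with a median position of 15 bp, and was written in the direction of transcription in 16.

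ACTTCCGG, a core of ETS factor motifs, was found in 11 of 69 MRP promoters, or 15.9%, against 6.33% of all and 9.05% of the CpG-rich ones. Each of these 11 genes had an untreated peak, as did 62 of the 69 MRP genes with a RefSeq promoter. No SBS match lay at the summit in 9 of the 11, against 45 of those 62. The ETS words lay before the start site in all but 1, at a median of -28 bp. Over all protein-coding promoters with this word the median was -27 bp, and 19.6% lay at or after the start site. GCATGCGC, a core of the NRF1 motif, a factor known for nuclear genes of mitochondrial function, was found in 6 of 69, or 8.70%, against 4.24% of all and 6.02% of the CpG-rich ones. The letters TTCC of the ETS word and GCATGC of the NRF1 word can also fall within an SBS, whereas the YY1 word has no such part in the consensus. AAGATGGC and ACTTCCGG were chosen because they were frequent in peaks of these lists, so that their presence at promoters with a peak is no independent support for anything, and the absence of a word says only that these letters are not in the window.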

How the data were processed

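The 2 deposited lists are narrow peaks that the authors called with MACS2 in hg38, after mapping with bwa, duplicate removal with Picard and removal of blacklisted regions; no control library is named. The untreated peaks are named for DMSO, but the labels state no treatment. As deposited, each peak has a score, a fold enrichment (a ratio over local background), a −log10 q-value and a summit offset, pooled over the samples of a condition; the number of per-sample columns left unused is 0. The −log10 q-values of both lists started just above 2. Depth is not given in the sources used here.

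Gene models were those of GENCODE release 44. For each gene, the peak with the highest score in the window stood for it, and peaks overlapping by 1 bp or more counted as shared. The members, lists and settings were chosen with earlier results of these data known. Matrices for SBS and CTCF were learned from peaks on odd-numbered autosomes without member promoter peaks, starting from the most enriched word of 8 letters, in 10 iterations with a pseudocount of 0.8 and sites at p 1e-06. Matches were called at p 1e-05. The peaks used for learning, the CpG-rich background and 2 of the 3 short words were set after the data had been looked at. Assignment and matching were tested on simulated data. The named genes are the 10 highest untreated and 5 highest dTAG-V1 scores, members with a peak in 1 list, the 5 largest summit distances, the 3 lowest ranks, members without a peak or with several, and up to 5 peaks shared with neighbours. Sequences were read with pysam 0.24.0 and numba 0.67.0, and tables with pandas 2.3.3, numpy 2.4.6 and scipy 1.17.1 under Python 3.11.15. With 1 list per condition, no test was made.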

Additional observations from a re-analysis of the deposited data

How the results depend on the processing

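Of 85 recomputed values under the alternatives, 76 stayed within 1.5 times the count or inside the 95% interval of the median or share, and 9 did not. The genes with an untreated peak and no overlapping dTAG-V1 peak, 1 as reported, numbered 2 with centres within 500 bp of a start site and 2 with any overlap of the window. They numbered 2 with a −log10 q-value of at least 5 and 8 when an overlap of 50% of both peaks was required. Those with a dTAG-V1 peak and no overlapping untreated peak, 5 as reported, numbered 3 with the window of 500 bp and 12 with the overlap of 50%. Genes with peaks in both lists that overlapped by less than 50% counted in both numbers. The 8 and 12 are therefore not genes that lack a peak in the other list. The share with a CTCF match rose from 11.6% to 21.7% in the untreated list and from 6.85% to 16.4% in the dTAG-V1 list with matches at p 5e-05, and to 19.2% in the dTAG-V1 list with matches anywhere in the peak. Under the same settings the dTAG-V1 share over all genes was 25.4% in both cases, above that of the MRP genes. No median changed sign. Leaving out single samples was not possible with 1 list per condition. No paired analysis was possible because the lists hold no values of single samples. Depth is unknown, so that a missing peak is not evidence of no binding.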
